A study of Mus musculus with 16 samples.

Results

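The mitochondrial protein import machinery is the set of translocases, chaperones and proteases that carry proteins made in the cytosol into mitochondria. Its genes were taken here as the count table's symbols that begin with Timm or Tomm and a number, pseudogenes left out, together with Pam16, Dnajc19, Dnajc15, Grpel1, Grpel2, Pmpca, Pmpcb, Chchd4, Gfer, Samm50, Mtx1 and Mtx2. That gave 38 of 54392 symbols. Of the 38 members, 35 passed the filter on low counts and were tested, and 3 did not.

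Nearly all mitochondrial proteins are encoded in the nucleus, so the organelle depends on import to grow and to renew itself. The TOM complex is the common entry gate of the outer membrane, and past it the TIM23 complex with its motor, the TIM22 complex, the small TIM chaperones, the disulfide relay and the SAM complex each handle a class of precursor. The colon epithelium renews rapidly and takes much of its energy from oxidising short-chain fatty acids, which bacteria make from fermentable fibre, in its mitochondria.

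Bulk RNA-seq was done on colonocytes, the epithelial cells of the colon, of C57BL/6 mice that ate fish oil and pectin (7 libraries) or corn oil and cellulose (9 libraries) for 3 weeks. Fish oil supplies n-3 fatty acids and pectin is a fermentable fibre, whereas corn oil is rich in n-6 fatty acids and cellulose is poorly fermented. Oil and fibre differ together between the diets, so their effects cannot be told apart. The labels give neither the age nor the sex of the mice. Read from the counts of Y-linked genes (over 100 in sum), 3 of 7 fish oil/pectin and 6 of 9 corn oil/cellulose libraries were male, so sex was uneven between the diets. The labels number the libraries as biological replicates of each diet, but leave unsaid whether every library stands for its own mouse. The p-values below therefore reflect library-to-library spread that may be partly technical.

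Library totals were 16212831 to 19512755 counts with fish oil/pectin and 13996288 to 19331984 with corn oil/cellulose. Library names were sorted into 2 forms by whether they begin with GC. Names with this prefix belonged to 10 libraries (5 fish oil/pectin, 5 corn oil/cellulose), while 6 lacked it (2 fish oil/pectin, 4 corn oil/cellulose). The names of those 6 end in A or Q, and each ending occurs in both diets. The model did not separate the endings, and their effect was not tested. The meaning of the prefix and of the endings is not given. The form of the name was therefore a term of the model, and values within each form are given below. The summed level of 9 colon epithelium markers was 19000 to 33100 CPM with fish oil/pectin and 18700 to 23200 CPM with corn oil/cellulose, whereas the summed smooth muscle, fibroblast and B or plasma cell markers stayed at or under 0.536, 1.37 and 0.861 CPM with fish oil/pectin and 0.616, 4.41 and 1.33 CPM with corn oil/cellulose. Immune markers were present: the macrophage markers summed to 47.7 to 87.5 CPM with fish oil/pectin and 40.5 to 53.4 CPM with corn oil/cellulose, and the T cell markers to 8.83 to 24.5 CPM with fish oil/pectin and 7.52 to 50.9 CPM with corn oil/cellulose. CPM is a gene's count scaled to a common library size with TMM factors. Fish oil/pectin library 7 was the highest of all 16 libraries for 27 of the 35 tested members, and the share of all genes highest in it was not counted. Without library 7, 27 members were higher at an adjusted p under 0.05 in edgeR, against 19.2% of all genes. The median log2 fold change of the members was then 0.29, against 0.34 with it.

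The import genes were higher with fish oil/pectin across nearly every step of the pathway. Of the 35 tested members, 29 rose with fish oil/pectin and 0 fell at an adjusted p under 0.05, where 21.7% of the 14321 genes tested were called higher and 20.1% lower (41.7% in either direction). No member was lower at an unadjusted p under 0.05 either, and DESeq2 and limma voom also called 29 higher and 0 lower. With sex, as read from the Y-linked counts, in the model 28 were higher. The count of members higher was not stable under every fit: it was 0 with a score of non-epithelial markers or of cycling cell markers in the model, where 0.0% and 0.0698% of genes were called higher. It was 5 when the 6 libraries lacking the prefix were fitted by themselves (4.34% of genes) and 14 in the libraries with lower name numbers (7 fish oil/pectin, 4 corn oil/cellulose; 8.37% of genes). The median log2 fold change of the members was 0.34 (quartiles 0.23 and 0.43), against -0.004 over all genes tested (quartiles -0.23 and 0.22). The sign was positive for 34 of 35 members, against 49.3% of all genes. The changes were small: the members' folds ran from 0.98 for Tomm34 to 1.55 for Timm13. In these bulk samples, more cells of a type and more RNA per cell cannot be told apart.

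**Figure D1:**
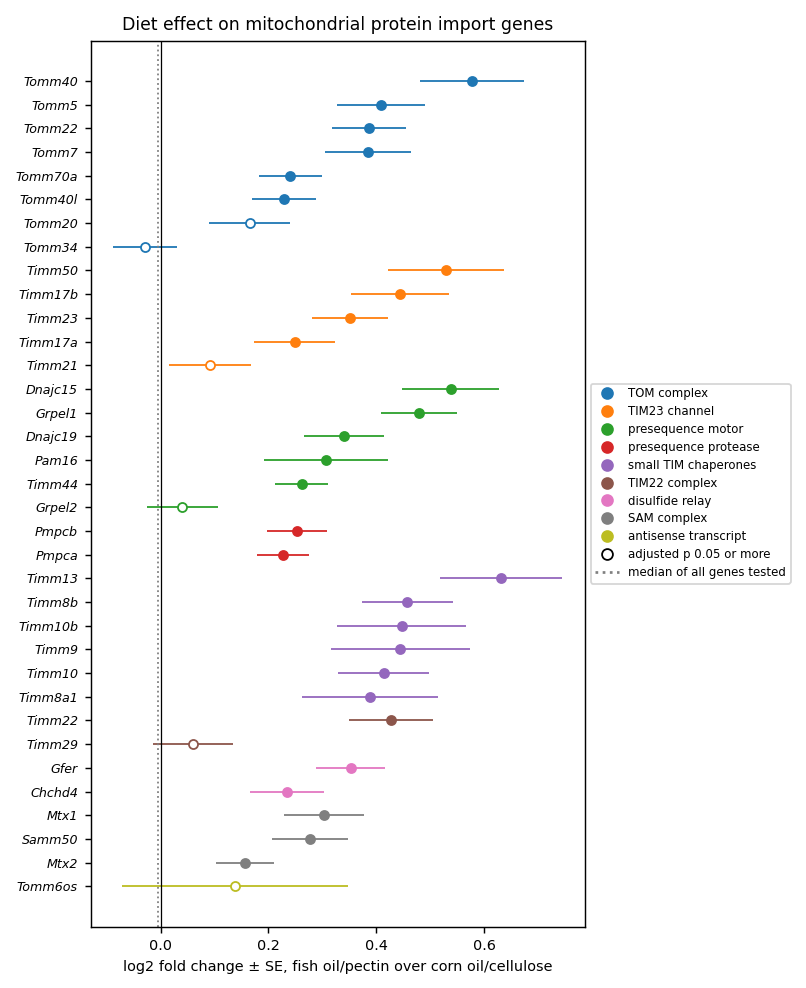
Log2 fold change with its standard error for each of the 35 tested import genes, fish oil/pectin over corn oil/cellulose, grouped by role from top to bottom. Filled points passed an adjusted p of 0.05; the small TIM chaperones all lie right of 0.38, while Tomm34, Grpel2, Timm29, Timm21, Tomm20 and Tomm6os are open.

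Every fish oil/pectin library lay above every corn oil/cellulose library for 7 of the 35 members, which were Dnajc15, Dnajc19, Grpel1, Pmpca, Timm17b, Timm23 and Timm50. Over all genes tested this held for 2.35%. Among GC-named libraries alone the diets did not overlap in this direction for 24 members, against 15.2% of all genes, and among the other libraries for 18 members, against 18.1%. The mean log2 CPM of the 35 members was 5.54 to 5.89 in the GC-named fish oil/pectin libraries, against 5.23 to 5.35 in the GC-named corn oil/cellulose libraries. In libraries without the prefix it was 5.33 to 5.36 with fish oil/pectin and 5.11 to 5.22 with corn oil/cellulose. The lower fish oil/pectin values of a member were mostly in the libraries without the prefix: library 2 was the lowest of the 7 for 17 members and library 1 for 10.

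**Figure D2:**
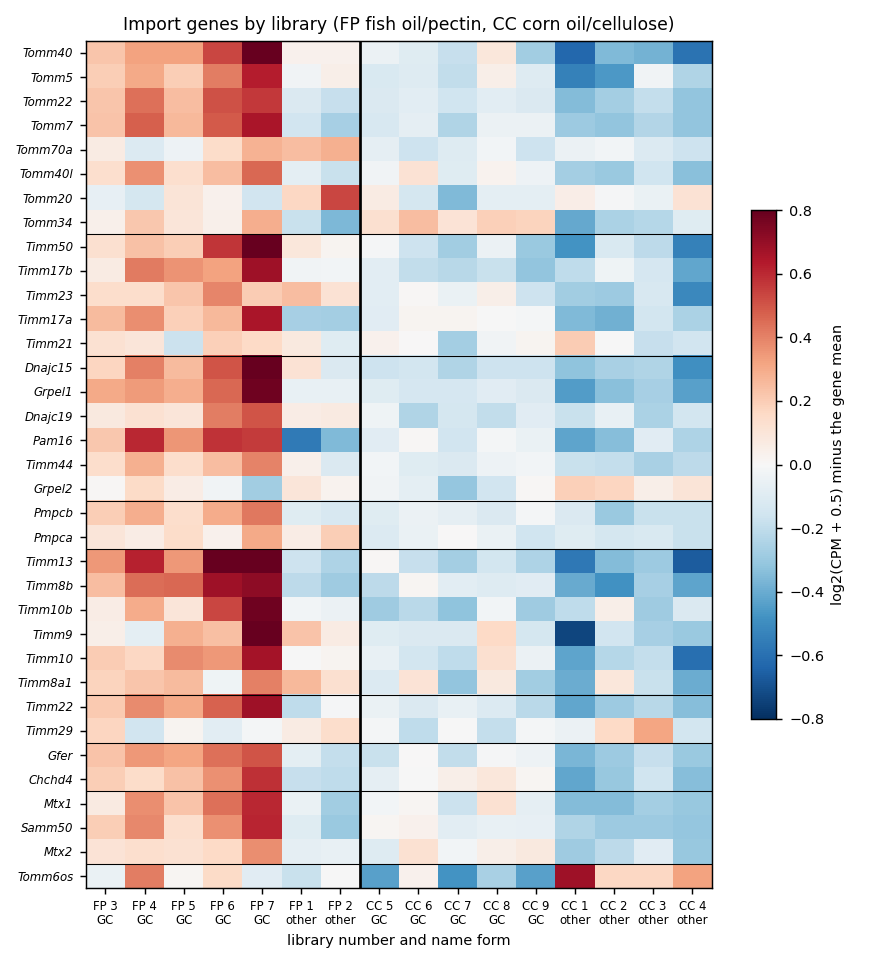
Log2(CPM + 0.5) of the 35 tested import genes in each library, minus the gene's mean over the 16 libraries, with fish oil/pectin (FP) libraries left of the vertical line and corn oil/cellulose (CC) libraries right of it. Horizontal lines separate the roles. FP 7 is the darkest red column, and FP 1 and FP 2, whose names lack the GC prefix, are the palest of the fish oil/pectin columns.

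Promoter sequence was read from the 250 bases before the RefSeq start (build GRCm38.p6), on both strands. This was done for every member with a matched start, called or not. A RefSeq promoter was matched for 34 members, of which 31 were tested. The letters CCGGAAG are the core bound by ETS family factors such as GABP. They stood in the promoters of 12 of the 31 genes (38.7%), against 15.3% of the 10491 tested genes with a promoter. Counted by window, they stood in 39.4% of the members' 33 windows, 12.9% of the windows of tested genes and 6.9% of all 32851 windows. Of the members with a promoter, 10 of the 27 called higher held these letters, as did 2 of the 4 that were not called, Tomm34 and Timm29. The NRF1 motif, written GCGCA, any base, GCGC, stood in 3 of the 31 genes (Chchd4, Tomm20 and Pam16; 9.7%, against 9.0% of tested genes). The E-box CACGTG stood in 9.7%, against 9.8%, the GC box GGGCGG in 61.3%, against 62.5%, and CCAAT in 25.8%, against 40.3%. No match of 1 of these 5 motifs shared a base with a match of another in the members' windows, and a match is a description of the sequence and not of binding. For 9 of the 31 genes the window also holds an exon of another gene, such as Sdhd beside Timm8b and Parg beside Timm23. The stretches below show where CCGGAAG lies, with bases annotated as an exon of any gene left out. They come from 4 members that rose and from Tomm34, which did not pass the test. The Tomm34 stretch lies before only 1 of its RefSeq starts, and the window of the other holds 2 matches. The Tomm70a window also holds 2 matches, of which the stretch shows 1, as the other lies in bases left out. All read 5′ to 3′ on the gene's own strand, and capitals mark CCGGAAG or its reverse complement CTTCCGG.
Tomm22, chr15:79670768-79670860, plus strand: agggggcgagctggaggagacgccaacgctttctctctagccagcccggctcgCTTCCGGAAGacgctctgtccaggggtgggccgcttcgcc
Tomm70a, chr16:57121614-57121702, plus strand: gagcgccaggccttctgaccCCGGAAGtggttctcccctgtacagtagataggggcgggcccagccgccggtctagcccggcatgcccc
Timm23, chr14:32201899-32201948, minus strand: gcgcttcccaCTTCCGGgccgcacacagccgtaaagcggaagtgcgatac
Timm8b, chr9:50603813-50603900, plus strand: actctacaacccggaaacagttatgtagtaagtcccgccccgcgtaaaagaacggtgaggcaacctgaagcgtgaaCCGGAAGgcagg
Tomm34, chr2:164071170-164071269, minus strand: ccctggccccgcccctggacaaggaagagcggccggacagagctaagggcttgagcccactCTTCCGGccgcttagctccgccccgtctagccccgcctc
In Tomm22 the 2 orientations overlap in 1 run, CTTCCGGAAG.

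At the outer membrane gate, 6 of the 8 tested TOM members rose (median log2 fold change 0.31). Tomm40, which forms the pore of the gate and lies on chromosome 7 (GRCm38, 19701313 to 19715438, minus strand), had 108, 132 and 210 CPM (lowest, median and highest) with fish oil/pectin, against 67.9, 86.8 and 112 CPM with corn oil/cellulose. Of the 7 fish oil/pectin libraries, 5 lay above the highest corn oil/cellulose library, and all 7 lay above the corn oil/cellulose median. Its log2 fold change was 0.58 ± 0.10 (SE; fold 1.49, adjusted p = 0.000542). Tomm22, the receptor that holds the complex together (its stretch is printed above), had 93.3, 126 and 157 CPM with fish oil/pectin, against 83.4, 95.0 and 100 CPM with corn oil/cellulose. Only its 2 fish oil/pectin libraries without the GC prefix fell within the corn oil/cellulose range. Its log2 fold change was 0.39 ± 0.07 (fold 1.31, adjusted p = 0.000706). The small subunits Tomm5 and Tomm7, which stabilise the gate, rose by 0.41 ± 0.08 and 0.38 ± 0.08 on the log2 scale (adjusted p = 0.00121 and 0.00137). Tomm70a, the receptor for carrier precursors brought by cytosolic chaperones, rose by 0.24 ± 0.06 (adjusted p = 0.00398), and Tomm40l, a relative of Tomm40, by 0.23 ± 0.06 (adjusted p = 0.00576). Nr1i3 overlaps 64.3% of the exon bases of Tomm40l on the opposite strand, and the strand setting of the counting is not given.

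The remaining TOM members did not pass the test. Tomm20, the receptor for cleavable presequences, had 34.8, 39.6 and 56.2 CPM with fish oil/pectin, against 30.2, 37.3 and 41.9 CPM with corn oil/cellulose. The ranges overlapped in most libraries, and the highest value was in fish oil/pectin library 2. Its log2 fold change was 0.16 ± 0.08 (adjusted p = 0.0856). It passed when corn oil/cellulose library 5 was left out (0.19, adjusted p = 0.0476). Tomm34, a cytosolic partner of the heat shock chaperones that binds precursors before they reach the gate, was the one member with a negative sign. It had 28.2, 37.4 and 44.5 CPM with fish oil/pectin, against 27.2, 39.2 and 43.2 CPM with corn oil/cellulose. The groups overlapped over nearly their whole range, and the log2 fold change was -0.03 ± 0.06 (adjusted p = 0.727). Tomm6, a further small subunit, had 38 counts in all 16 libraries together and Tomm20l 2 counts, so neither was tested. Another gene on the same strand, Gm21981, shares 76.0% of the exon bases of Tomm6 and had 4 counts in all libraries together. How reads shared by both were counted is not given, so the low count of Tomm6 cannot be read as a low level. Tomm6os, a noncoding transcript antisense to Tomm6 that the naming rule takes in though it encodes no import protein, was at 1.21, 1.43 and 2.07 CPM with fish oil/pectin and 0.889, 1.48 and 2.6 CPM with corn oil/cellulose (log2 fold change 0.14 ± 0.21, adjusted p = 0.624).

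**Figure D3:**
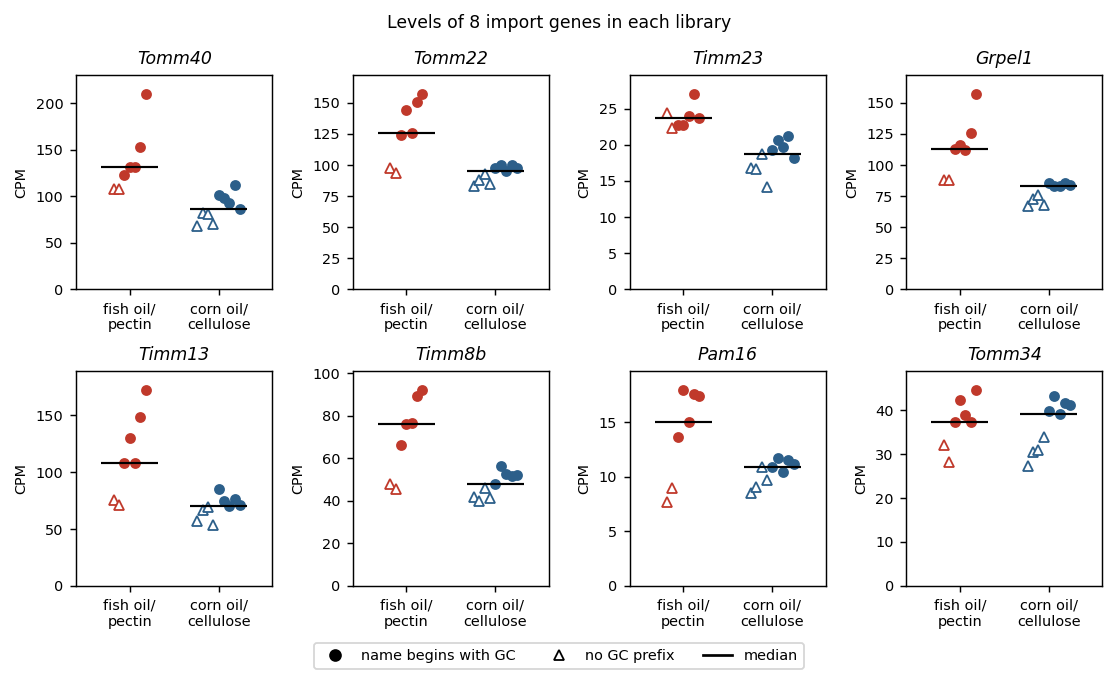
CPM of 8 import genes in each library, fish oil/pectin left and corn oil/cellulose right in each panel; filled circles are GC-named libraries, open triangles the others, and lines mark medians. The diets do not overlap for Timm23 and Grpel1, while for Pam16 the 2 fish oil/pectin libraries without the prefix lie at 7.71 and 8.99 CPM, within or below the corn oil/cellulose libraries.

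In the inner membrane, the TIM23 complex takes over precursors with a presequence, and 4 of its 5 members rose (median 0.35). Timm23, the channel subunit that gives the complex its name (chromosome 14, 32180162 to 32201898, minus strand; promoter stretch above), had 22.3, 23.7 and 27.0 CPM with fish oil/pectin, against 14.2, 18.7 and 21.2 CPM with corn oil/cellulose. The diets did not overlap. Its log2 fold change was 0.35 ± 0.07 (fold 1.28, adjusted p = 0.00114). Timm50, the receptor that hands precursors to the channel, had 55.8, 62.9 and 104 CPM with fish oil/pectin, against 37.5, 47.4 and 54.5 CPM with corn oil/cellulose. The diets again did not overlap, and library 7 was the highest. Timm50 had a log2 fold change of 0.53 ± 0.11 (fold 1.44, adjusted p = 0.00129). The paralogous core subunits Timm17b and Timm17a rose by 0.44 ± 0.09 and 0.25 ± 0.08 (adjusted p = 0.00136 and 0.0133). Timm21, which links the complex to the respiratory chain, was at 21.9, 26.5 and 28.2 CPM with fish oil/pectin and 20.4, 24.6 and 28.5 CPM with corn oil/cellulose, and did not pass (0.09 ± 0.08, adjusted p = 0.350).

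Of the motor that pulls precursors into the matrix, 5 of 6 members rose (median 0.32). Grpel1, the nucleotide exchange factor of mitochondrial Hsp70 (chromosome 5, 36464998 to 36474080, plus strand), had 87.7, 113 and 157 CPM with fish oil/pectin, against 66.9, 83.1 and 85.9 CPM with corn oil/cellulose. No fish oil/pectin library was as low as any corn oil/cellulose library. Grpel1 had a log2 fold change of 0.48 ± 0.07 (fold 1.39, adjusted p = 0.000449). Its paralog Grpel2 showed no such gap, with 51.7, 64.2 and 69.9 CPM with fish oil/pectin and 50.7, 63.4 and 71.9 CPM with corn oil/cellulose. For Grpel2 the log2 fold change was 0.04 ± 0.07 (adjusted p = 0.649), and the difference between the paralogs was not tested. Dnajc15, a J-protein of the motor, had 38.2, 49.4 and 75.7 CPM with fish oil/pectin, against 29.3, 35.0 and 37.4 CPM with corn oil/cellulose. All 7 fish oil/pectin libraries lay above all 9 others. Its log2 fold change was 0.54 ± 0.09 (fold 1.45, adjusted p = 0.000562). Dnajc19, the related J-protein that stimulates Hsp70, rose by 0.34 ± 0.07 (adjusted p = 0.00181), and Timm44, which anchors Hsp70 at the channel, by 0.26 ± 0.05 (adjusted p = 0.00087). Pam16, the J-like subunit that holds the stimulating J-protein in check, was called at 0.31 ± 0.12 (adjusted p = 0.040), with 7.71, 15.0 and 17.9 CPM with fish oil/pectin and 8.55, 10.9 and 11.7 CPM with corn oil/cellulose. Its lowest values with fish oil/pectin were in the 2 libraries without the GC prefix, and its call was lost on leaving out any 1 of 4 fish oil/pectin libraries (4, 5, 6 and 7) or 6 corn oil/cellulose libraries (1, 5, 6, 7, 8 and 9), with a log2 fold change of 0.26 to 0.40 over the 16 such fits.

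Both subunits of the processing peptidase, which cuts presequences off in the matrix, rose. Pmpca, the subunit that recognises the presequence, had 105, 110 and 127 CPM with fish oil/pectin, against 90.7, 95.1 and 103 CPM with corn oil/cellulose. The diets did not overlap, and its log2 fold change was 0.23 ± 0.05 (fold 1.17, adjusted p = 0.0018). Pmpcb, the catalytic subunit, had 121, 152 and 178 CPM with fish oil/pectin, against 108, 122 and 131 CPM with corn oil/cellulose. In 5 of 7 fish oil/pectin libraries it lay above the corn oil/cellulose range. Pmpcb had a log2 fold change of 0.25 ± 0.06 (fold 1.19, adjusted p = 0.00213).

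The small TIM chaperones carry hydrophobic precursors across the space between the membranes. They had the highest median of the 8 roles at 0.45, and all 6 that were tested rose. Of these, Timm8b, Timm10, Timm13 and Timm8a1 have under 2000 bp of exon, a length at which the median over all genes was 0.24. With each library's trend on exon length removed, the small TIM chaperones no longer had the highest median, and that of the TIM23 members was higher. The small TIM chaperones were then at 0.22, 0.23, 0.252, 0.437, 0.455 and 0.466. The TIM23 members were at 0.091, 0.243, 0.365, 0.43 and 0.456. Timm13, which pairs with Timm8 proteins (chromosome 10, 80899450 to 80900969, minus strand), had 71.4, 108 and 172 CPM with fish oil/pectin, against 53.2, 70.1 and 85.3 CPM with corn oil/cellulose. Here 5 fish oil/pectin libraries exceeded every corn oil/cellulose library, and the 2 others, without the GC prefix, lay within the range. Timm13 had the highest log2 fold change of the members, 0.63 ± 0.11 (fold 1.55, adjusted p = 0.000737). With each library's trend on exon length removed, as below, it was at 0.455, lower than Dnajc15 at 0.669 and Tomm40 at 0.612. Timm8b, whose promoter stretch is printed above, had 45.7, 76.1 and 92.0 CPM with fish oil/pectin, against 39.8, 48.2 and 56.5 CPM with corn oil/cellulose. The 2 libraries without the prefix were again the low ones. For Timm8b the log2 fold change was 0.46 ± 0.08 (fold 1.37, adjusted p = 0.000766). Timm10 and Timm9, which form the main carrier chaperone together, rose by 0.41 ± 0.08 and 0.44 ± 0.13 (adjusted p = 0.00124 and 0.0109). Timm10b, which docks that chaperone on the TIM22 complex, rose by 0.45 ± 0.12 (adjusted p = 0.00703) and the low-level Timm8a1, at 3.59 ± 0.373 CPM with fish oil/pectin and 2.71 ± 0.467 CPM with corn oil/cellulose (SD, n = 7 and 9), by 0.39 ± 0.13 (adjusted p = 0.0194). Timm8a2, a near copy of Timm8a1, had 10 counts over all libraries and was not tested. How reads shared by such copies were counted is not given.

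Carrier precursors are then inserted by the TIM22 complex. Timm22, its channel, ranged over 20.2 to 37.6 CPM with fish oil/pectin (mean 28.6 ± 5.81, SD, n = 7), against 17.4 to 22.5 CPM with corn oil/cellulose (mean 20.3 ± 1.84, n = 9). All fish oil/pectin libraries but 1 lay above the corn oil/cellulose range. Its log2 fold change was 0.43 ± 0.08 (fold 1.34, adjusted p = 0.00076). Timm29, a subunit of the complex described in human cells, was at 22.3, 25.2 and 28.0 CPM with fish oil/pectin and 21.5, 24.5 and 31.0 CPM with corn oil/cellulose, with wide overlap. It did not pass (0.06 ± 0.07, adjusted p = 0.541).

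Both enzymes of the disulfide relay, which traps small cysteine-rich proteins between the membranes, rose. Gfer, the sulfhydryl oxidase that recharges the relay, had 47.2, 67.4 and 76.8 CPM with fish oil/pectin, against 41.9, 47.4 and 54.2 CPM with corn oil/cellulose. The 5 GC-named fish oil/pectin libraries were above every other library. Gfer had a log2 fold change of 0.35 ± 0.06 (fold 1.28, adjusted p = 0.000746). Chchd4, the import receptor and oxidoreductase of the relay, had 31.5, 41.6 and 54.6 CPM with fish oil/pectin, against 27.1, 34.5 and 38.7 CPM with corn oil/cellulose. It showed the same layout, with its 2 low fish oil/pectin values in the libraries without the prefix. For Chchd4 the log2 fold change was 0.24 ± 0.07 (fold 1.18, adjusted p = 0.0112).

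The SAM complex folds barrel proteins such as Tomm40 into the outer membrane, and its 3 members rose. Mtx1, a metaxin of its cytosolic face, had 46.8, 66.8 and 86.5 CPM with fish oil/pectin, against 44.7, 50.5 and 61.9 CPM with corn oil/cellulose. Of its fish oil/pectin libraries, 4 lay above the corn oil/cellulose range. The log2 fold change of Mtx1 was 0.30 ± 0.07 (fold 1.23, adjusted p = 0.0039), and exons of Thbs3 and Gm43737 overlap 30.1% of its exon bases on the opposite strand. Such opposite-strand overlap also covered 20.4% of the exon bases of Pmpca, 18.7% for Pam16, 15.6% for Timm8b and 11.6% each for Grpel1 and Timm10b. On the same strand, Gm45799 shares 10.5% of the exon bases of Timm10b. Samm50, the barrel at the core of the complex, had 154, 217 and 289 CPM with fish oil/pectin, against 153, 179 and 194 CPM with corn oil/cellulose. In 5 of 7 fish oil/pectin libraries it exceeded the corn oil/cellulose range. The log2 fold change of Samm50 was 0.28 ± 0.07 (fold 1.21, adjusted p = 0.00501). Mtx2, the partner of Mtx1, rose by 0.16 ± 0.05 (adjusted p = 0.0272), a call that did not hold with library 7 of the fish oil/pectin group or library 5 of the corn oil/cellulose group dropped (0.12 to 0.17 over the 16 fits that leave out 1 library). Of the 29 calls, 27 were kept in all 16 of those fits, the exceptions being Pam16 and Mtx2, while 18.6% to 22.0% of all genes were called higher.

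Levels of different members were compared per kilobase of exon. On this scale Timm8b and Tomm7 stood highest, at 136 ± 35.4 and 127 ± 28.7 CPM per kb with fish oil/pectin and 92.5 ± 11.3 and 92.2 ± 7.38 CPM per kb with corn oil/cellulose (SD, n = 7 and 9). These neighbours did not differ beyond their spread. Timm13 and Tomm22 came next, at 84.9 ± 27.1 and 77.3 ± 15.1 CPM per kb with fish oil/pectin and 50.6 ± 7.11 and 56.5 ± 3.86 CPM per kb with corn oil/cellulose, so that their order differed between the diets within the spread. Among tested coding members Timm8a1 was the lowest, at 2.53 ± 0.263 CPM per kb with fish oil/pectin and 1.91 ± 0.329 CPM per kb with corn oil/cellulose. The channel subunit Timm23 stood at 13.3 ± 0.894 CPM per kb with fish oil/pectin and 10.3 ± 1.23 CPM per kb with corn oil/cellulose, below Tomm40 at 30.6 ± 7.87 and 19.5 ± 3.26 CPM per kb on the same diets.

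The diet effect was next estimated within each form of the library name, in a joint fit of 14803 genes. In GC-named libraries 27 of 35 members were higher and 0 lower at an adjusted p under 0.05, where 22.2% of genes were called higher and 21.6% lower, and the members' median log2 fold change was 0.39. The sign was positive there for 34 members, against 49.7% of genes. In libraries without the prefix 0 members were called, and 0 of 14803 genes were. At an unadjusted p under 0.05 without the prefix, 13 of 35 members were higher, against 9.05% of all genes. There 31 of 35 members were positive, against 46.8% of genes, and the median was 0.15. Tomm40 had a log2 fold change of 0.60 ± 0.12 in GC-named libraries and 0.51 ± 0.16 in the others, and Timm23 had 0.27 ± 0.08 in GC-named libraries and 0.48 ± 0.11 in the others.

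The difference between the forms passed the test for 4 of 35 members (11.4%), where 8.03% of all genes did. Among those 4, Pam16 had the largest difference, with a log2 fold change of 0.54 ± 0.10 in GC-named libraries and -0.20 ± 0.14 in the others (adjusted p of the difference = 0.0204). Tomm7 had 0.53 and 0.07 (adjusted p = 0.0338), Tomm22 0.51 and 0.12 (adjusted p = 0.039) and Timm8b 0.61 and 0.14 (adjusted p = 0.0414), each with the GC-named value first. The noncoding Tomm6os had a larger difference that did not pass, with 0.54 ± 0.21 in GC-named libraries and -0.58 ± 0.28 in the others (adjusted p = 0.0582). These calls rest on few libraries. Leaving out fish oil/pectin library 1 or 2 brought the count to 0. It was 1 with library 4 or 6 of that diet, or library 3, 4 or 7 of the corn oil/cellulose diet, left out, and 2 when corn oil/cellulose library 1, 2, 5, 8 or 9 was. With fish oil/pectin library 3 left out it was 7.

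**Figure D4:**
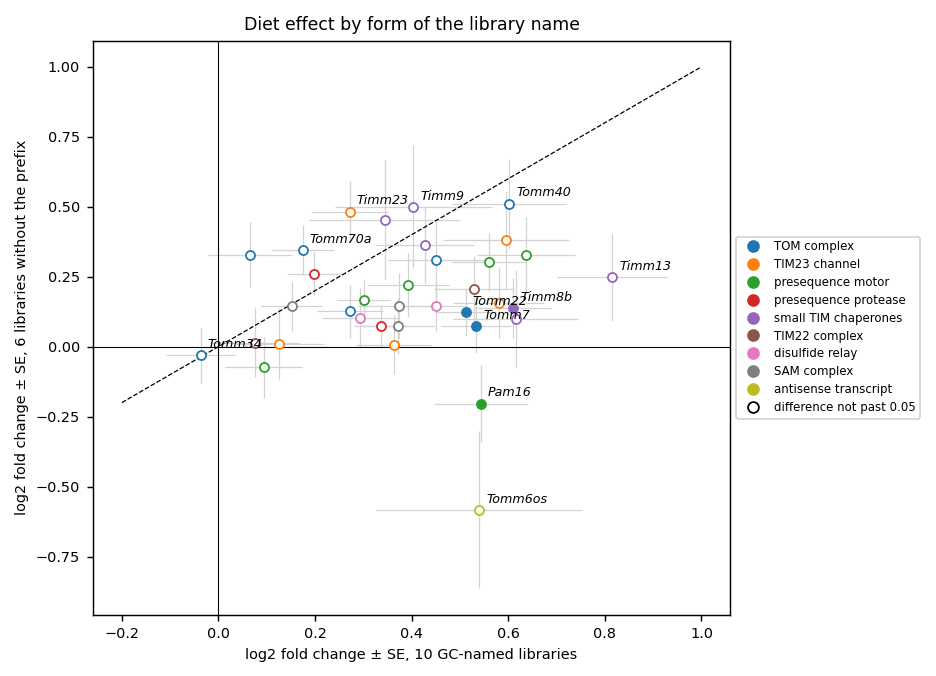
Log2 fold change with standard errors of each tested import gene in the 10 GC-named libraries (horizontal axis) and in the 6 libraries without the prefix (vertical axis), fish oil/pectin over corn oil/cellulose in both. Filled points are the 4 genes whose difference between forms passed an adjusted p of 0.05, and the dashed line marks equal values; most genes lie below it and above 0.

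Cell type markers did not all move with the members. Of 8 absorptive colonocyte markers 2 were called higher with fish oil/pectin and 1 lower. Of 7 goblet cell markers 1 was higher and 0 lower, and of 6 enteroendocrine markers 1 was higher and 1 lower. Among 3 tested tuft cell markers 0 were called, and among 6 tested macrophage markers 1 was higher and 1 lower. Of 9 colon epithelium markers 6 were higher with fish oil/pectin and 0 lower (median log2 fold change 0.31), where 21.7% of all genes were called higher and 20.1% lower. Their summed level was 27300 to 33100 CPM in GC-named fish oil/pectin libraries, against 21900 to 23200 CPM in GC-named corn oil/cellulose libraries. In libraries without the prefix that sum was 19000 CPM with fish oil/pectin and 18700 to 19300 CPM with corn oil/cellulose. Of 8 cycling cell markers 7 were higher with fish oil/pectin. Their summed level was 495 to 1000 CPM in GC-named fish oil/pectin libraries, against 383 to 579 CPM in GC-named corn oil/cellulose libraries. Without the prefix it was 822 to 920 CPM with fish oil/pectin and 475 to 685 CPM with corn oil/cellulose. The summed level of 8 T cell markers, of which 6 were tested and 5 were lower, was 13.6 to 24.5 CPM in GC-named fish oil/pectin libraries, against 21.5 to 50.9 CPM in GC-named corn oil/cellulose libraries, and without the prefix it was 8.83 to 10.2 CPM with fish oil/pectin and 7.52 to 11.9 CPM with corn oil/cellulose. With a score of 15 non-epithelial markers in the model, 0 members and 0 of 14321 genes were called, 31 members stayed positive, and the median was 0.22. At an unadjusted p under 0.05 in that model, 13 members were higher, against 8.37% of all genes. With the cycling marker score in the model instead, 0 members were called, while 10 of 14321 genes (0.0698%) were called higher. In that model 34 members stayed positive, the median was 0.21, and 16 members were higher at an unadjusted p under 0.05, against 10.9% of all genes. In GC-named libraries the non-epithelial score did not overlap between the diets (1.46 to 1.6 with fish oil/pectin, 1.84 to 2.31 with corn oil/cellulose), whereas without the prefix it did. The cycling score did not overlap without the prefix (6.33 to 6.46 with fish oil/pectin, 5.53 to 6.06 with corn oil/cellulose), whereas in GC-named libraries it did. Score and diet could therefore not be fully told apart in these fits. The part that epithelial, cycling or non-epithelial cells have in the result was not tested. Without fish oil/pectin libraries 6 and 7, 26 members were called higher, against 15.2% of genes, and the median was 0.23.

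Short genes were higher with fish oil/pectin over the whole table, so the members were set against exon length. The log2 fold change and log exon length had a Pearson correlation of -0.34 over 14255 genes and of -0.37 over the 35 members (Spearman -0.42 and -0.39). These are correlations across genes, which share the same libraries. The median log2 fold change ran from 0.27 in the decile of genes with a median exon length of 912 bp to -0.26 in that of 12050 bp. With each library's trend on exon length removed, 28 members were called higher, against 22.7% of genes, of which 27 were called in both fits. The median of the 8 members under 2000 bp was then 0.24, against 0.40 before, and that of the 27 longer members 0.32, against 0.26 before. Over all genes under 2000 bp it was 0.08, against 0.24 before. Tomm7 was at 0.20 and Timm8b at 0.25 after removal, both still called, whereas Tomm70a was at 0.46 and Timm17a at 0.43. Pam16 (0.22, adjusted p = 0.106) and Timm8a1 (0.23, adjusted p = 0.175) lost their call, and Tomm20 gained one (0.23, adjusted p = 0.0192).

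**Figure D5:**
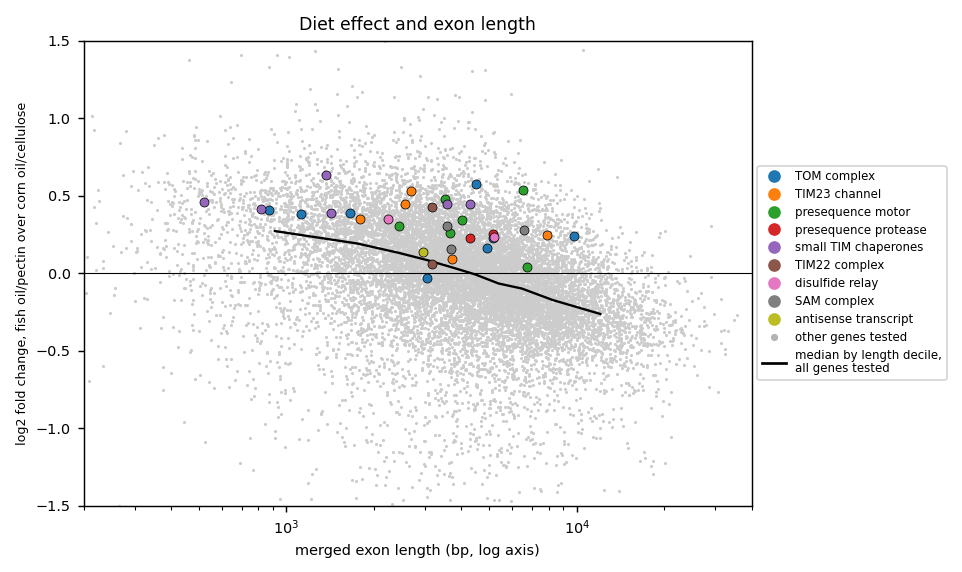
Log2 fold change, fish oil/pectin over corn oil/cellulose, against merged exon length on a log axis for 14141 genes (grey) and the 35 tested import genes (coloured by role); 114 genes lie beyond the axes. The line joins the medians of length deciles and falls with length, and all import genes but Timm29 and Tomm34 lie above it.

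Beyond the members, 15 other genes of protein import and sorting were tested, of which 9 rose and 2 fell (median 0.21). Over all genes tested, 21.7% were called higher and 20.1% lower. Hspa9, the mitochondrial Hsp70 that drives the motor, averaged 620 CPM with fish oil/pectin and 503 CPM with corn oil/cellulose (0.30 ± 0.07, adjusted p = 0.00179). Romo1, a small inner membrane protein tied to the TIM23 complex, had 33.8, 58.4 and 76.9 CPM with fish oil/pectin, against 30.3, 36.3 and 45.0 CPM with corn oil/cellulose (0.52 ± 0.09, adjusted p = 0.000672). Aifm1, which binds the relay enzyme encoded by Chchd4, did not overlap between diets, with 129, 139 and 167 CPM with fish oil/pectin and 100, 115 and 125 CPM with corn oil/cellulose (0.29 ± 0.05, adjusted p = 0.000893). Mtx3, a further metaxin beside Mtx1 and Mtx2, went the other way: it had 20.6, 26.3 and 36.1 CPM with fish oil/pectin, against 33.9, 39.2 and 51.2 CPM with corn oil/cellulose. In every fish oil/pectin library it lay below the corn oil/cellulose median, and it fell by 0.49 on the log2 scale (SE 0.08, adjusted p = 0.000533). The other gene that fell was Xpnpep3, an aminopeptidase that trims imported proteins (-0.24 ± 0.09, adjusted p = 0.0453).

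Of 16 genes that encode substrates of the disulfide relay, 13 rose and 0 fell, where 21.7% of all genes were called higher and 20.1% lower. Their median was 0.40 over all libraries, 0.54 in GC-named libraries and 0.07 in the others. Chchd1, a mitochondrial ribosome subunit, had the lowest p, with 40.2, 47.2 and 75.6 CPM with fish oil/pectin and 29.3, 30.7 and 34.9 CPM with corn oil/cellulose. The diets did not overlap, and the log2 fold change was 0.68 ± 0.10 (adjusted p = 0.000461). Uqcrh, a hinge subunit of complex III, and Chchd2 followed at 0.48 ± 0.09 and 0.55 ± 0.10 (adjusted p = 0.0008 and 0.000824). In GC-named libraries Uqcrh and Chchd2 were at 0.66 and 0.75, and in the others at 0.09 and 0.15.

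Of 9 regulators of mitochondrial biogenesis tested, 3 rose and 3 fell (median 0.09), where 21.7% of all genes were called higher and 20.1% lower. Tfam, which packages and transcribes mitochondrial DNA, had 75.5, 82.2 and 96.8 CPM with fish oil/pectin, against 60.7, 68.4 and 74.5 CPM with corn oil/cellulose, with no overlap (0.30 ± 0.06, adjusted p = 0.00121). Ppargc1a, the coactivator PGC-1 alpha, had 17.6, 42.6 and 61.6 CPM with fish oil/pectin, against 58.5, 74.5 and 87.4 CPM with corn oil/cellulose, and fell by 0.76 on the log2 scale (SE 0.17, adjusted p = 0.00228). Gabpa, a subunit of the ETS factor GABP, had 33.4, 43.0 and 63.8 CPM with fish oil/pectin, against 51.8, 62.7 and 65.4 CPM with corn oil/cellulose. It fell by 0.34 (SE 0.08, adjusted p = 0.00327), with -0.50 in GC-named libraries and -0.05 in the others.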

How the data were processed

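Raw counts per gene symbol, as the authors deposited them for the 16 libraries, were used without change, and 0 per-sample columns were left unused. Per the labels' protocols, 200 ng of RNA from a micro-scale column kit entered a stranded mRNA library preparation. STAR 2.6.0a, HTSeq 0.11.1 and the build GRCm38 are named in the submitters' processing notes, and neither source names the annotation release or the strand setting. No 2 libraries of a diet agreed within sampling noise (chi-square per degree of freedom 7.61 to 128 over 57 pairs, genes with at least 10 counts).

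The diet effect was fitted across the whole table in edgeR 4.0.16 under R 4.3.3, with TMM scaling, filterByExpr (14321 genes kept) and the robust quasi-likelihood test with diet and name form as terms. Log2 fold changes are fish oil/pectin over corn oil/cellulose, SE is the size of the log2 fold change divided by the root of its F value, and Benjamini-Hochberg adjustment of p-values ran over all genes at a threshold of 0.05. A joint fit gave the effect within each name form and their difference. The code was tested on simulated data. Symbols were matched to GENCODE M21 for exon length and overlaps (98.8% matched). Alternatives were other scalings, filters and terms, library subsets, DESeq2 1.42.0 and limma voom 3.58.1 with quality weights. Cell type scores are mean log2(CPM + 0.5). Genes given with full values were the 2 members of each role with the lowest p, the 3 highest and 3 lowest log2 fold changes, and up to 3 genes with the lowest p per pathway list. Hspa9, Xpnpep3, Opa1, Hspd1, Hspe1, Afg3l2 and the fuller values of Pam16, Timm21, Tomm20 and Tomm6os were added after their values were seen. The members, lists and tests were chosen with earlier results of these data known.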

Additional observations from a re-analysis of the deposited data

Results flagged for a closer look

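Dixon's test at the 95% level was run on 106 sets of values, and chance flags about 1 in 20. It picked out Timm9 at 46.8 CPM in fish oil/pectin library 7, where the other fish oil/pectin libraries held 22.3 to 28.9 CPM, and Tomm20 at 56.2 CPM in fish oil/pectin library 2, where the others held 34.8 to 43.4 CPM. Without library 7 or any other single library, Timm9 stayed called (log2 fold change 0.31 to 0.50).

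The diet effect differed between the forms of the library name, by the interaction test in edgeR, for 9 of the genes reported. Of these, 4 were among the 35 tested members (11.4%). Over all genes 8.03% passed that test. The genes outside the members were shown for their low p of diet. Without fish oil/pectin library 1 or 2, 0 members passed. The log2 fold change in GC-named libraries minus that in the others was 0.747 for Pam16, 0.473 for Timm8b, 0.388 for Tomm22 and 0.459 for Tomm7 among the members. Outside them it was 0.573 for Uqcrh (adjusted p = 0.0181), 0.601 for Chchd2 (adjusted p = 0.0349), 0.515 for 2410015M20Rik (adjusted p = 0.0249), 0.557 for Minos1 (adjusted p = 0.0201) and -0.452 for Gabpa (adjusted p = 0.0434). The labels do not say what the name forms mean, and their part in these differences was not tested.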

How the results depend on the processing

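The count of 29 members higher was 25 to 29 with no name form term, GC-named libraries alone, RLE, upper quartile or no scaling factors, other filters, DESeq2, limma voom, sex or exon length (9.41% to 22.9% of genes), 27 to 29 without any 1 library (18.6% to 22.0%), 23 at an adjusted p of 0.01 (13.8%) and 30 at 0.1 (25.7%). It was 5 in libraries without the GC prefix alone (Grpel1, Pmpca, Timm23, Tomm40 and Tomm70a), 14 in the libraries with lower name numbers, 0 with the non-epithelial score and 0 with the cycling score, which was added after seeing the data, as was leaving out fish oil/pectin libraries 6 and 7 (26). The cause of these drops was not tested. The count of members lower was 0 in every fit. Same-numbered libraries of the diets are not paired by the labels, and their deviations correlated at -0.285 to 0.384; with a replicate block, 21 members were higher (13.6% of genes). Pam16 changed sign in libraries without the prefix alone (-0.18) and with the non-epithelial score (-0.038). With total counts alone, 26 members were higher, Mtx2, Pam16 and Timm8a1 lost their call, Grpel2 and Timm29 had a negative sign beside Tomm34, and 2247 of 6026 called genes were higher, against 3103 of 5979 with TMM. The count of members that differ between name forms was 1 with total counts alone, 0 at an adjusted p of 0.01, 8 at 0.1, and 0 to 7 without any 1 library. With 2 fish oil/pectin libraries lacking the prefix, precision there is low.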

Other observations

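Genes that act before and after import were also tested. Of 8 genes of the MICOS complex and cristae, which shape the inner membrane, 7 rose with fish oil/pectin and 0 fell (median log2 fold change 0.28, where 21.7% of all genes were called higher). The MICOS subunit gene 2410015M20Rik had 92.1, 151 and 187 CPM (lowest, median and highest) with fish oil/pectin, against 84.2, 98.2 and 112 CPM with corn oil/cellulose (0.48 ± 0.08, adjusted p = 0.000641). Minos1, another MICOS subunit, was called at 0.47 ± 0.09 (adjusted p = 0.000819) and Apool at 0.30 ± 0.06 (adjusted p = 0.00137). Opa1, the fusion protein of the inner membrane, was the one with a negative sign and did not pass (-0.14 ± 0.06, adjusted p = 0.0622).

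Of 11 genes of folding and quality control in mitochondria, 6 rose and 0 fell (median 0.22), where 21.7% of all genes were called higher and 20.1% lower. Clpp, the matrix protease subunit, had 42.7, 66.5 and 90.8 CPM with fish oil/pectin, against 35.6, 43.4 and 48.0 CPM with corn oil/cellulose (0.48 ± 0.09, adjusted p = 0.000811). The chaperonin pair that folds imported proteins rose as well, Hspd1 by 0.41 ± 0.11 (adjusted p = 0.00703) and Hspe1 by 0.55 ± 0.14 (adjusted p = 0.00467), whereas Afg3l2, a protease of the inner membrane, was at -0.02 ± 0.05 (adjusted p = 0.760). Of 6 cytosolic chaperones that deliver precursors, 3 rose and 0 fell, against the same 21.7% and 20.1% of all genes. Hsp90ab1, whose product docks on the Tomm70a receptor, had 1800, 1860 and 2270 CPM with fish oil/pectin, against 1420, 1620 and 1740 CPM with corn oil/cellulose, with no overlap (0.27 ± 0.06, adjusted p = 0.00287).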
